A study of Mus musculus with 8 samples.

Results

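Keratins are the intermediate filament proteins of epithelial cells, and 8 keratin genes that include Krt14 were followed here across pre-iPSCs that carried Nanog, Sin3a, both or neither as transgenes. The members were every probe that the array annotation assigns to Krt14, Krt5, Krt17, Krt7, Krt8, Krt18, Krt19 or Krt20, each probe kept apart, which gave 9 probes of 45281 on the array and 8 genes of 19057 named on it. Krt14 was selected on its measured level in Nanog+Sin3a cells against empty-vector cells, and the other members were taken because they are keratins, so the keratin values of that contrast are given below as a description with no test.

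Keratin filaments are built from obligate pairs of a type I and a type II chain. Krt8 (type II) and Krt18 (type I) are the pair of simple epithelia and of the first epithelium of the embryo, while Krt5 (type II) and Krt14 (type I) are the pair of the basal layer of the epidermis and other stratified epithelia. Unpaired keratin chains are known to be unstable as proteins, which RNA levels do not show. Krt7 (type II), Krt19 and Krt20 (both type I) are keratins of ducts, glands and gut lining, and Krt17 (type I) belongs to hair follicles and wounded epidermis.

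The cells were female pre-iPSCs, which are cells stalled partway through reprogramming to pluripotency, made from neural stem cells (strain 129/MF1) and carrying an Oct4-GFP-IRES-puro reporter. They grew in serum with LIF on gelatin. Every group held stably integrated PiggyBac vectors with inserts under a CAG promoter, was selected with hygromycin, blasticidin or both, and was labelled day 0 of reprogramming, so drug-selected transposon vectors were common to all 4 groups. The groups, of 2 arrays each, carried Nanog and Sin3a together (Nanog+Sin3a), Nanog with an empty vector (Nanog), Sin3a with an empty vector (Sin3a), or empty vectors only (EV). Sin3a is the scaffold of a histone deacetylase corepressor complex, and Nanog is a homeodomain transcription factor of pluripotent cells. The labels do not say whether the arrays of a group came from separate cultures. Each p-value therefore reflects only how far arrays of a pair differed, pooled over the groups with a pair in the fit and moderated over all probes. That spread may be technical, and the number of arrays limits the precision.

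Total RNA was labelled as biotinylated cRNA and measured on Illumina bead arrays, whose values are background-subtracted intensities in arbitrary units. An intensity of 16 (4 on the log2 scale) was used as a floor, and 16157 to 16365 probes lay above it on each array. 1 array, the second of the Sin3a group, was noisy at low and middle intensities. Between the arrays of a pair, 68.8% of probes at a mean log2 value of 5 to 9 differed by over 1 on the log2 scale in the Sin3a group, against 2.13% in Nanog+Sin3a, 1.12% in Nanog and 0.180% in EV, whereas at a mean log2 value of 9 or more that share was 0% in the Sin3a group. On the second Sin3a array 3026 probes, 8 of them keratin probes, read over 64 although they read at most 32 on each of the other 7 arrays. Differences were therefore fitted with limma without that array (7 arrays, 18558 probes above the floor in at least 2 of them), and again with all 8 arrays on the 2670 bright probes, those with a mean log2 value above 9. The 7-array fit held 1 Sin3a array, which was assumed to vary like the arrays of the other groups. The transgenes followed the labels on every array: a Nanog probe read 290 and 285 in Nanog+Sin3a, 365 and 486 in Nanog, and below 0 on both arrays of Sin3a and of EV, and the Sin3a probe read 1485 and 1483 in Nanog+Sin3a, 344 and 473 in Nanog, 1182 and 1142 in Sin3a, and 329 and 262 in EV.

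The promoters of the 3 keratins on which the results turn are shown first, as the 300 bases that run from 250 before to 50 after the gene start in RefSeq (GRCm38.p6). The RefSeq table held 6 of the 8 members, namely Krt14, Krt5, Krt7, Krt8, Krt18 and Krt20. Krt14 (chr11:100205981-100206280, minus strand) had the highest level in Nanog+Sin3a cells, Krt20 (chr11:99438104-99438403, minus strand) was lower wherever Nanog was carried, and Krt8 (chr15:102004293-102004592, minus strand) was bright in all groups. Capitals mark matches to TATAAA on either strand.
Krt14: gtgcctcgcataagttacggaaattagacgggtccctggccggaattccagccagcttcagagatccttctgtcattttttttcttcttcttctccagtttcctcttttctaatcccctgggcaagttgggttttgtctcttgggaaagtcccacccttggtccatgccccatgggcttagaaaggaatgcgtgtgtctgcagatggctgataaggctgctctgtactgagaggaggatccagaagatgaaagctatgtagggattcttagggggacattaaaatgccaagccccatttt
Krt20: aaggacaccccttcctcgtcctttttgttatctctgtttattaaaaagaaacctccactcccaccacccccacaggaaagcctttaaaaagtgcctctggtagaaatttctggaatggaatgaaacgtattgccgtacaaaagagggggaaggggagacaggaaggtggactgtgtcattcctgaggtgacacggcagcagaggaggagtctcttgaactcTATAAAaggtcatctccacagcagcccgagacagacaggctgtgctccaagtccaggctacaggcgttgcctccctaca
Krt8: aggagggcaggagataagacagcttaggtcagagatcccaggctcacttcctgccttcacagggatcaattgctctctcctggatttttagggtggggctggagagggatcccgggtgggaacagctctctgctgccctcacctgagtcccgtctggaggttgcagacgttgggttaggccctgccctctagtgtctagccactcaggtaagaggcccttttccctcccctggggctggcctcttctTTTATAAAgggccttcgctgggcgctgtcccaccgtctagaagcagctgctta
Krt20 held 1 match to TATAAA, starting 29 bases before the gene start, and Krt8 held TATAAA on both strands in overlapping letters at the start itself. The Krt14 window held no match, and 13.6% of all 32851 RefSeq promoter windows of the same length held one. On either strand, none of the 6 keratin windows held the AP-1 letters TGANTCA (present in 7.81% of all windows) or the Nanog core letters TAATGG (7.73%), and only Krt7 held the Sp1 letters GGGCGG (4 matches, against a share of 35.7% of all windows with at least 1). A match is a description of letters and not of a bound site, and a missing match says nothing about a factor.

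Of the 9 member probes, 5 were above the floor in at least 2 of the 7 arrays and were tested (Krt14, Krt8 probe 1, Krt20, Krt19 and Krt7). Of these, 2 were bright (Krt14 and Krt8 probe 1), and 4 probes, those of Krt5, Krt17 and Krt18 and a second Krt8 probe, were not tested. The basal keratin Krt14 and the simple keratin Krt8 were thus the only members read well above background, each without a measurable level of its partner, Krt5 for Krt14 and Krt18 for Krt8. Krt5 and Krt18 had 1 probe each, and the second Krt8 probe read at background beside the bright one. A probe at background therefore does not show that its transcript was absent.

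**Figure D1:**
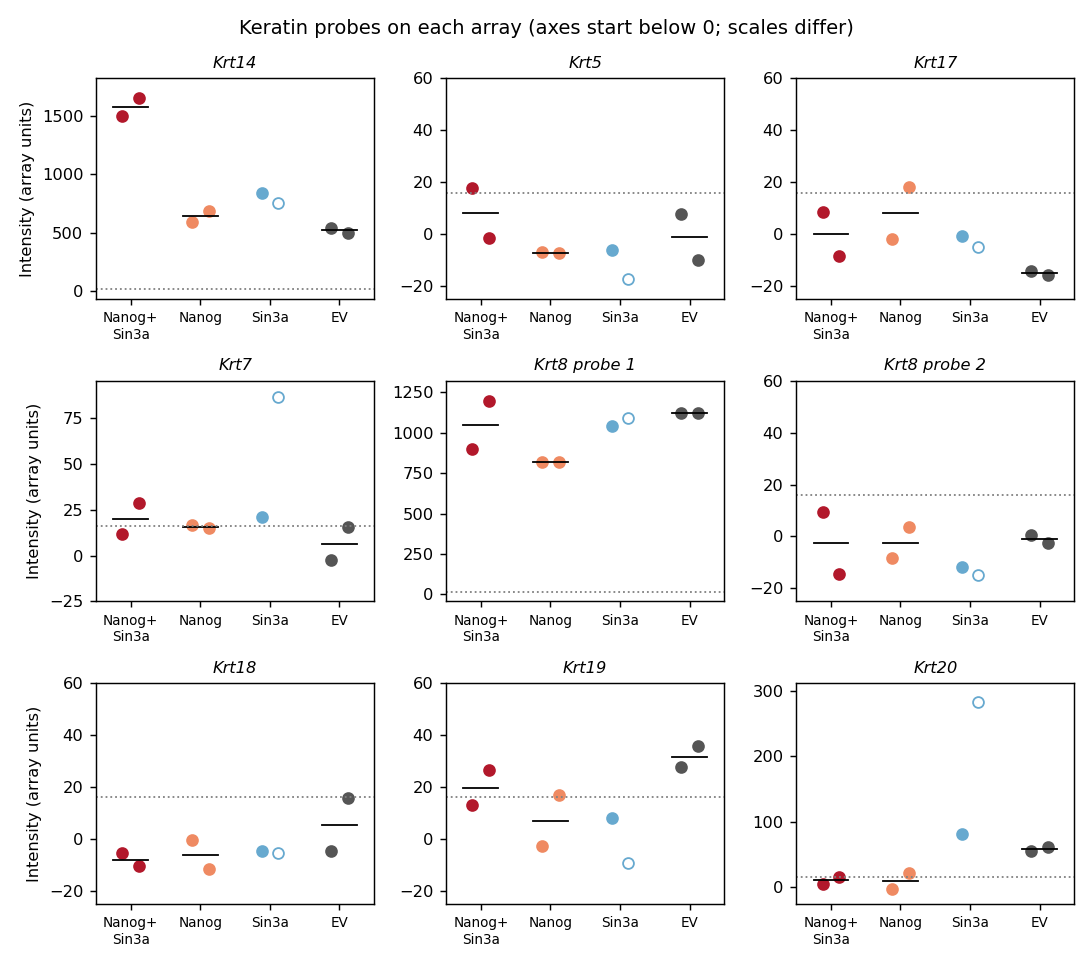
Intensity (arbitrary units, linear axes that start below 0 and differ in scale) of the 9 keratin probes on each array, with the groups in the order Nanog+Sin3a, Nanog, Sin3a and EV. Points are arrays, bars are means of 2 arrays (none for Sin3a), the open circle is the noisy second Sin3a array, and the dotted line is the floor of 16. Krt14 on both Nanog+Sin3a arrays, at 1500.1 and 1650.1, lies above its value on every other array, Krt8 probe 1 lies between 816 and 1199 throughout, and Krt20 lies near the floor in Nanog+Sin3a and Nanog.

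Krt14 was highest when both transgenes were present. It read 1500.1 and 1650.1 in Nanog+Sin3a, 592 and 686 in Nanog, 835 and 751 in Sin3a, and 542 and 495 in EV. No group's arrays overlapped another's: both Nanog+Sin3a arrays were highest, the Sin3a arrays came next, then the Nanog arrays, and both EV arrays were lowest. This order is a description, since the share of all probes whose groups separate without overlap was not counted. Nanog+Sin3a cells were 3.04-fold above EV cells (1.60 on the log2 scale), the contrast in which Krt14 was chosen and in which 5.87% of all probes passed the limma test.

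Krt14 was higher in Nanog+Sin3a than in either single-transgene group. These differences are also given as a description, since they rest on the Nanog+Sin3a arrays on which Krt14 was selected. Their SEs and 95% intervals are therefore no test. The log2 difference of Nanog+Sin3a against Nanog was 1.30 ± 0.11 (SE, 95% interval 1.04 to 1.57), or 2.47-fold, in the 7-array fit. Over all probes, limma called 0.0162% (3 of them) in that comparison. Nanog+Sin3a against Sin3a was 0.91 ± 0.13 (SE, 95% interval 0.59 to 1.24) against the first Sin3a array, and 0.99 ± 0.13 (1.99-fold) on bright probes with both Sin3a arrays. In the 7-array fit 1.07% of all probes passed in that comparison.

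Neither transgene alone gave a Krt14 difference from EV that passed, in comparisons that share the EV arrays with the contrast on which Krt14 was selected. Sin3a against EV was 0.69 ± 0.13 (SE, 95% interval 0.37 to 1.01; adjusted p = 0.787) in 7 arrays, a comparison in which limma called 0% of probes and 658 had an unadjusted p under 0.05. On the bright probes, where 0.15% passed, Sin3a against EV was 0.61 ± 0.13 (1.53-fold, 95% interval 0.35 to 0.88) with an adjusted p of 0.0523. It passed without the first Nanog array (0.00568) or the second (0.00702), and its adjusted p was 0.999 without the second EV array. Nanog against EV was 0.30 ± 0.11 (SE, 95% interval 0.04 to 0.56; adjusted p = 0.222 in 7 arrays and 0.146 on bright probes), and it passed on bright probes only without the first Nanog array (0.41, adjusted p = 0.0444).

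The Sin3a difference in Krt14 was larger with Nanog than without it by 0.62 on the log2 scale in 7 arrays, with 1 Sin3a array. On bright probes with both Sin3a arrays this interaction was 0.69 ± 0.18 (SE). Both values contain the Nanog+Sin3a and EV arrays on which Krt14 was selected, so they are given as a description. Neither passed adjustment in limma (adjusted p = 0.400 on bright probes). No probe passed the interaction in 7 arrays in limma (954 had an unadjusted p under 0.05), and 0.0375% of bright probes did. Nanog against Sin3a, which shares no array with the contrast that chose Krt14 and was added after the data were seen, gave a Krt14 log2 difference of -0.39 ± 0.13 (95% interval -0.71 to -0.07; adjusted p = 0.308), with 0.393% of probes called. The order Sin3a above Nanog therefore held on every array without passing the test.

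**Figure D2:**
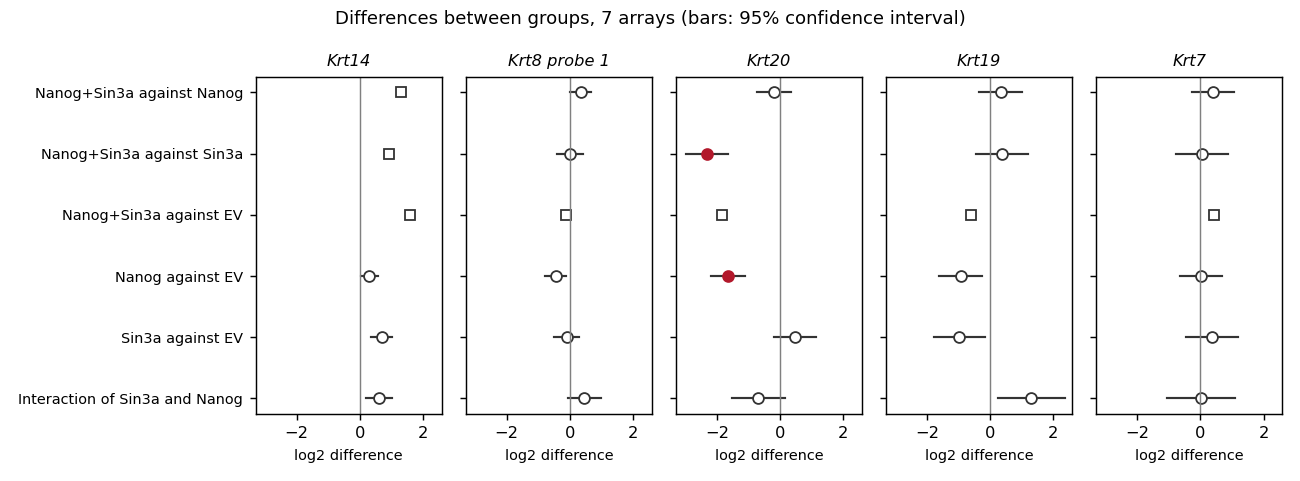
Log2 differences of the tested keratin probes in 6 comparisons in the 7-array fit. Filled red points passed an adjusted p of 0.05, and bars are 95% intervals. Open squares without bars are values given as a description: Nanog+Sin3a against EV for every probe, and Nanog+Sin3a against each group for Krt14. The Krt14 interaction, drawn with a bar, is a description too. Krt14 lies right of 0 in each comparison of Nanog+Sin3a with another group (1.30 against Nanog, 0.91 against Sin3a, 1.60 against EV), and Krt20 lies left of 0 where Nanog is set against EV (-1.64).

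Krt5 and Krt17 were not measurable. Krt5, the type II partner of Krt14, read 17.9 and -1.5 in Nanog+Sin3a, -7.0 and -7.3 in Nanog, -6.3 and -17.4 in Sin3a, and 7.7 and -10.2 in EV. A single value, on the first Nanog+Sin3a array, was above the floor. Krt17 read 8.3 and -8.3 in Nanog+Sin3a, -1.9 and 18.0 in Nanog, -0.9 and -5.2 in Sin3a, and -14.2 and -15.7 in EV. It exceeded the floor on 1 Nanog array only. For probes with a mean intensity of 16 to 64, the arrays of a pair differed by a median of 10.8 in Nanog+Sin3a, 8.8 in Nanog, 37.9 in Sin3a and 5.2 in EV, and the Krt5 and Krt17 readings, nearly all below the floor, were given no order between groups.

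Among the simple keratins, Krt8 was bright in every group and Krt18 was not above background. Krt8 probe 1 read 899 and 1199 in Nanog+Sin3a, 816 and 822 in Nanog, 1042 and 1090.0 in Sin3a, and 1119 and 1124 in EV. The Nanog arrays were lowest, below all others, and the Nanog+Sin3a arrays spanned the values of Sin3a and EV. Nanog against EV was -0.45 ± 0.13 on the log2 scale among bright probes (95% interval -0.72 to -0.19), 1.37-fold lower in Nanog cells, with an adjusted p of 0.0309 in limma where 9.89% of bright probes passed and 5.02% passed as lower. That call was lost without the second Nanog array (adjusted p = 0.0793), the first EV array (0.127) or the second EV array (0.221). It was also not passed among all 18558 probes of 7 arrays (adjusted p = 0.158), where 2.04% of probes passed.

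Krt8 did not follow Krt14. Nanog+Sin3a against Nanog was 0.34 ± 0.14 (95% interval 0.01 to 0.67; adjusted p = 0.464), and Nanog+Sin3a stood 0.11 on the log2 scale below EV, less than the gap between its own arrays. Nanog against Sin3a was -0.38 among bright probes (adjusted p = 0.0730), passing only without the first Nanog+Sin3a array (0.0480), with 7.6% of bright probes called. The other Krt8 probe was at or below the floor on all 8 arrays (-14.7 to 9.6), so the 2 Krt8 probes gave a level far above background and no level above it. Krt18, the type I partner of Krt8, read -5.6 and -10.4 in Nanog+Sin3a, -0.5 and -11.7 in Nanog, -4.8 and -5.4 in Sin3a, and -4.8 and 15.9 in EV, below the floor on every array.

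Krt20, a type I keratin of gut lining, was low wherever Nanog was carried. It read 4.8 and 16.4 in Nanog+Sin3a, -2.0 and 21.8 in Nanog, 81.0 and 282 in Sin3a, and 55.0 and 61.5 in EV. All arrays with Nanog were below all arrays without it, and the highest reading, 282, came from the noisy second Sin3a array. The share of all probes with such an order was not counted. Nanog against EV was -1.64 ± 0.22 on the log2 scale (SE, 95% interval -2.18 to -1.10), 3.11-fold lower in Nanog cells with values under 16 raised to it, with an adjusted p of 0.0247 in limma where 0.959% of probes passed as lower. Krt20 was the 1 tested member of 5 that passed in this comparison, and 0 passed as higher, where 1.08% of all probes did. The Nanog arrays do not enter the contrast that chose Krt14, but the EV arrays do.

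The Krt20 call was narrow. It was lost without any 1 of the 6 arrays of Nanog+Sin3a, Nanog or EV (adjusted p 0.0883 to 0.301), with all 8 arrays (0.747) and without the filter on low values (0.286), and the difference was -0.86 with a floor of 32. Against the single Sin3a array, Nanog cells were lower by -2.12 ± 0.27 (adjusted p = 0.0443) and Nanog+Sin3a cells by -2.32 ± 0.27 (adjusted p = 0.0250), and both calls were lost in each of the 6 fits that left out another array. Nanog+Sin3a against Nanog was -0.21 ± 0.22 (95% interval -0.74 to 0.33; adjusted p = 0.787), and Sin3a against EV was 0.48. In these bulk samples fewer cells that hold a transcript and less of it per cell cannot be told apart.

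Krt19 and Krt7 lay near the floor. Krt19, a type I keratin that lacks most of the usual tail domain, read 13.0 and 26.4 in Nanog+Sin3a, -2.7 and 16.8 in Nanog, 7.9 and -9.1 in Sin3a, and 27.7 and 35.7 in EV. Both EV arrays were highest, with the second Nanog+Sin3a array just below them and the other arrays lower. Nanog against EV was -0.94 ± 0.28 on the log2 scale (95% interval -1.61 to -0.27; adjusted p = 0.154), Sin3a against EV was -0.97, and Nanog+Sin3a stood 0.61 below EV. Krt7, the type II keratin of ducts, read 11.6 and 28.6 in Nanog+Sin3a, 16.4 and 14.9 in Nanog, 20.8 and 86.4 in Sin3a, and -2.6 and 15.5 in EV. The Sin3a arrays, the second of them noisy, were above the Nanog and EV arrays, the Nanog+Sin3a arrays spanned those of Nanog, and no comparison passed (Nanog+Sin3a against Nanog 0.40 ± 0.28, adjusted p = 0.676).

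The other keratins on the array were mostly not read either. Of all 66 keratin probes (49 genes), 19 were tested, 7 were above the floor on all 7 arrays and 39 on none, and the bright ones were Krt14 and Krt8 probe 1 alone. The 41 keratin genes that are not members had 57 probes, of which 14 probes of 12 genes were tested. In Nanog against EV, 3 of these 14 probes fell and 0 rose, where 0.959% of all probes fell and 1.08% rose, with a median log2 difference of -0.08 against 0 over all probes tested. Krt12, the type I keratin of the corneal epithelium, fell on both of its probes, with log2 differences of -1.66 ± 0.20 (adjusted p = 0.0174) and -1.45 ± 0.18 (adjusted p = 0.0181). The first Krt12 probe read 48.4 and 50.7 in Nanog+Sin3a, 57.2 and 43.8 in Nanog, 164 and 6.8 in Sin3a, and 173 and 144 in EV. Both arrays of each group with Nanog were thus lower than both EV arrays and the first Sin3a array. Krt13, a type I keratin of the mucosa, fell on its tested probe, with a log2 difference of -1.27 ± 0.19 (adjusted p = 0.0301), and read -9.9 and 19.6 in Nanog+Sin3a, 13.3 and 6.2 in Nanog, 18.6 and -1.7 in Sin3a, and 38.0 and 39.3 in EV. Both EV arrays were thus above the arrays of every other group, Sin3a included. The size of that difference depends on the floor, below which both Nanog readings lay, and with a floor of 32 it was -0.27 and did not pass (adjusted p = 0.186). Both Nanog readings were set to the same value and gave no spread. The Krt13 SE and adjusted p are therefore no valid test against EV, and the call is given as a description.

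In RefSeq gene order Krt10, Krt12 and Krt20 are consecutive protein-coding genes on chromosome 11, which was looked up after their values were seen. Krt10, the type I keratin of the suprabasal epidermis, read 318 and 248 in Nanog+Sin3a, 343 and 340 in Nanog, 349 and 40.7 in Sin3a, and 330 and 414 in EV, and Nanog against EV was -0.12 (adjusted p = 0.758). Krt12 and Krt20 were therefore lower with Nanog, while the Krt10 values of the Nanog arrays lay between those of the EV arrays. Of the 14 other keratin probes, 0 passed in Nanog+Sin3a against Nanog in limma (1937 of all probes had an unadjusted p under 0.05), the largest value being Krt16 at 0.71 (adjusted p = 0.477), a type I keratin of stressed epidermis.

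Gene lists around keratin filaments gave few calls. The 14 tested genes of desmosomes, hemidesmosomes and keratin linkers, which anchor filaments to the membrane, had 24 tested probes. In Nanog against EV 2 of these fell and 0 rose (0.959% of all probes fell and 1.08% rose), with a median log2 difference of -0.04. They were a probe of Ppl (periplakin, a cytolinker), at -1.41 ± 0.19 (adjusted p = 0.0233), and a probe of Pkp2 (plakophilin 2, a desmosomal plaque protein), at -1.11 ± 0.16 (adjusted p = 0.0307). The Ppl probe read -6.1 and 18.2 in Nanog+Sin3a, 10.5 and -1.2 in Nanog, 43.5 and 8.3 in Sin3a, and 39.6 and 45.5 in EV, so both arrays of each group with Nanog were lower than both EV arrays. With both Nanog readings below the floor, the Ppl difference depends on it, and with a floor of 32 it was -0.41 and did not pass (adjusted p = 0.106). The Nanog readings of Ppl were set to the same value and gave no spread. The Ppl SE and adjusted p are therefore no valid test against EV, and that call too is a description. Other tested probes of Pkp2 did not pass in Nanog against EV. None of the 24 probes passed in Nanog+Sin3a against Nanog (median 0.09).

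The keratinocyte regulators and cornified envelope genes (13 tested, 20 probes) had 1 probe higher and 1 lower in Nanog against EV, with a median of 0.28. Sprr2d, a small proline-rich protein of the cornified envelope, read 87.3 and 84.8 in Nanog+Sin3a, 134 and 138 in Nanog, -12.2 and 22.5 in Sin3a, and -10.9 and -14.5 in EV. Only arrays with Nanog were clearly above the floor. The fitted difference of Nanog against EV was 3.08 ± 0.18 with EV raised to the floor (adjusted p = 0.00395 in limma), a value that depends on that floor. In the fit only arrays with Nanog were above the floor, and they alone brought the probe into the tested set. Both EV readings were set to the same value and gave no spread. The SE and adjusted p are therefore no valid test against EV, and the call is given as a description. Tfap2a, a transcription factor of surface ectoderm, fell on 1 probe, with a log2 difference of -0.76 (adjusted p = 0.0329), while another probe of it gave 0.10.

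The remaining lists gave 0 calls in Nanog against EV in limma, where 3441 of all probes had an unadjusted p under 0.05. They were other intermediate filaments such as Vim and Nes (16 probes, median 0.12), epithelial junctions and their regulators (8 probes, 0.02), proteins that bind or modify keratins (10 probes, -0.04) and factors of the epithelial-mesenchymal transition (8 probes, 0.14). In Nanog+Sin3a against Nanog none of these 4 lists had a call (medians -0.06, -0.12, -0.14 and -0.11). The largest junction value there was a probe of Elf3, an epithelial ETS factor, at 1.02 (adjusted p = 0.227). That Elf3 probe stood at 1.45 and the other tested Elf3 probe at -0.29 in Nanog+Sin3a against EV. Apart from Sprr2d, which also passed without either Nanog+Sin3a array, each of these list calls in Nanog against EV, Krt12 and Krt13 included, was lost when any 1 array of Nanog+Sin3a, Nanog or EV was left out, as for Krt20. The Sprr2d call, given as a description like those of Krt13 and Ppl, was lost without any 1 array of Nanog or EV.

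**Figure D3:**
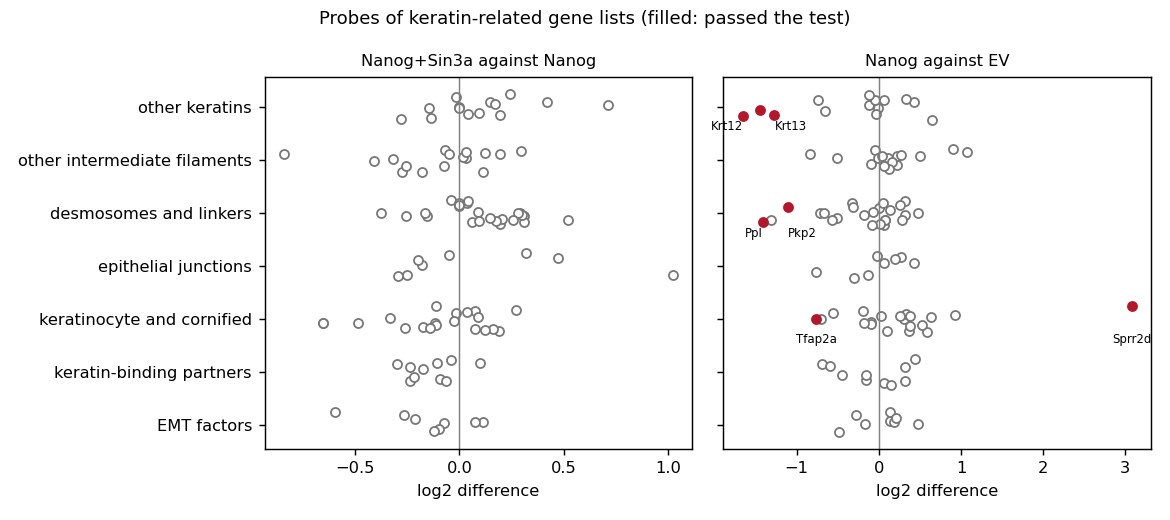
Log2 differences of each tested probe of the other keratins and of 6 keratin-associated lists, for Nanog+Sin3a against Nanog (left) and Nanog against EV (right). Each point is a probe, filled points passed an adjusted p of 0.05, and the vertical scatter within a list is only for legibility. No point passed in the left panel, where Elf3 lies farthest right (1.02), and in the right panel the passed points are lower in Nanog except Sprr2d (3.08). The passed Sprr2d, Krt13 and Ppl points are a description, since both EV readings (Sprr2d) or both Nanog readings (Krt13 and Ppl) were raised to the floor.

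Markers of other cells were set beside Krt14. The pluripotency list summed to 988 and 1133 in Nanog+Sin3a, 1088 and 1172 in Nanog, 1231 and 952 in Sin3a, and 1119 and 1251 in EV, most of it Pou5f1, with Esrrb and Utf1 at or below the floor on all 7 arrays. Of the neural stem cell list, Fabp7, Olig2, Pax6 and Gfap were at or below the floor, as were Epcam, Cldn4 and Grhl2 of simple epithelium, and on these 7 arrays the lists summed to 60.3 to 122 and to 292 to 410. The basal keratinocyte list summed to 1374 and 1468 in Nanog+Sin3a, 1073 and 1227 in Nanog, 1140 and 980 in Sin3a, and 1214 and 1140 in EV. Most of that sum was Itgb4, an integrin of hemidesmosomes, and the defining markers Trp63 and Dsg3 were at or below the floor on all 7 arrays. Trophectoderm and blood lists summed to at most 29.3 on these 7 arrays.

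The basal keratinocyte list and the fibroblast list, like Krt14, were highest on both Nanog+Sin3a arrays. In EV, and in Sin3a without its noisy array, 0 genes of the fibroblast list were above the floor in all arrays. No order of the fibroblast list is therefore given between these groups. The fibroblast list summed to 106 and 121 in Nanog+Sin3a, 52.4 and 65.5 in Nanog, 21.4 and 14.3 in Sin3a, and 28.8 and 24.0 in EV. In Nanog+Sin3a most of it was 1 probe of Dcn (decorin, a matrix proteoglycan), which read 92.6 and 79.4 in Nanog+Sin3a, 16.6 and 34.4 in Nanog, 4.0 and -2.2 in Sin3a, and 14.3 and -3.1 in EV. Col1a2, Col3a1 and Postn were at or below the floor on all 7 arrays. The part of fibroblasts or of basal keratinocytes in the Krt14 values was not tested.

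The genes whose pattern was most like Krt14 over the 7 arrays were sought among 3274 probes that spanned at least 1 on the log2 scale. The 5 with the highest Pearson r were Gng13 (0.985), Elf3 (0.977), P3h2 (0.970), Adamtsl3 (0.967) and Rbp7 (0.963). These are a G protein gamma subunit, an epithelial ETS factor, a collagen prolyl hydroxylase, a secreted matrix protein and a retinol-binding protein. Rbp7 read 528 and 488 in Nanog+Sin3a, 238 and 222 in Nanog, 226 and 12.7 in Sin3a, and 190 and 181 in EV, so it too was highest on both Nanog+Sin3a arrays. Other tested probes of Elf3 and P3h2 did not share the pattern (r of -0.18 and -0.04). The points share arrays and groups, and such values over 7 arrays are a description only.

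**Figure D4:**
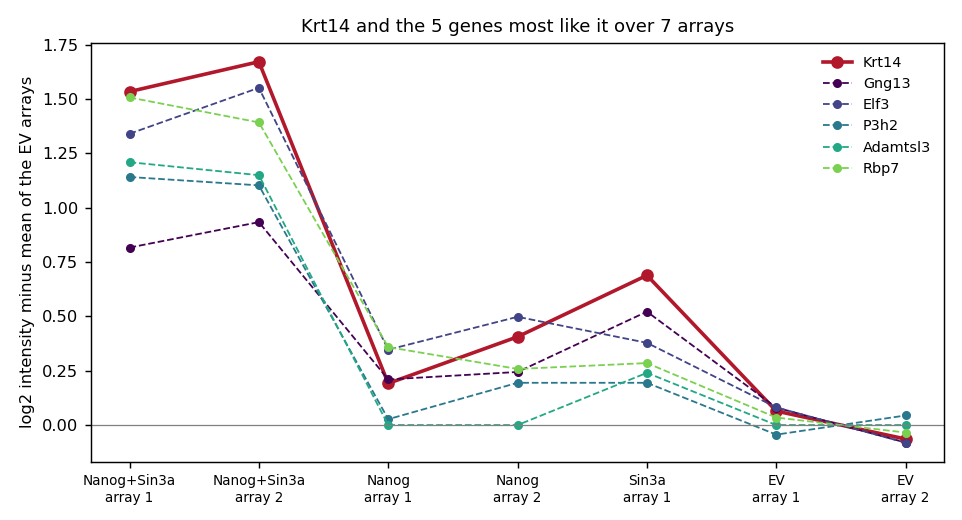
Log2 intensity of Krt14 and of the 5 probes most like it, minus each probe's mean over the EV arrays, on the 7 arrays in the order Nanog+Sin3a, Nanog, Sin3a and EV. Each line is a probe and each point an array, and all 6 are highest on the Nanog+Sin3a arrays, with Krt14 at a mean of 1.60 there.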

How the data were processed

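The deposited intensity values, 1 per probe and array, came from GenomeStudio per the submitters' processing notes; version and settings are not given in the sources used here. Values below 0 show that a background had been subtracted, and value distributions of 7 arrays matched within 0.618% above 16 (4.14% for the second Sin3a array), so the authors' values were taken as quantile-normalised. Values below 16 were raised to 16 and converted to log2, with each probe kept apart. By the annotation, 34885 probes had 1 symbol, 18 had several and 10378 had none. Differences were fitted in R 4.3.3 with limma 3.58.1 (lmFit, eBayes with an intensity trend, 1 coefficient per group), two-sided, with Benjamini-Hochberg adjustment over all probes tested at 0.05, and tested on simulated data. The 7-array fit left 3 residual degrees of freedom and the bright-probe fit 4. The members and lists were chosen with earlier results of these data known. Named genes were the members, the transgenes, per list and comparison up to 4 symbols with the largest passed change (or up to 2 as values where none passed), and the 5 most like each keratin probe that spanned at least 1 on the log2 scale. Same-numbered arrays did not deviate together (r of -0.05 for Nanog+Sin3a with Nanog, -0.02 for Nanog+Sin3a with EV, -0.05 for Nanog with EV), so the numbers pair no samples.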

Additional observations from a re-analysis of the deposited data

How the results depend on the processing

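Counts of calls depended on the fit, with 2 arrays a group and few residual degrees of freedom. Of the 9 probes of the 8 keratin genes, 0 were called in Nanog+Sin3a against Nanog, and 1 with array weights, with bright probes or with a floor of 32. That 1 was Krt14. Its calls here and in the other Nanog+Sin3a comparisons are no support, since it was selected on those arrays. In Nanog+Sin3a against Sin3a 2 were called, against 1 with bright probes or no intensity trend and 0 with all 8 arrays, array weights, no filter or the replicate block. In Nanog+Sin3a against EV, on which Krt14 was selected, the fit called 2 (Krt14 and Krt20, no support for either), against 1 with all 8 arrays or bright probes and 0 with no filter. In Nanog against EV 1 passed, against 0 with all 8 arrays or no filter and 2 with array weights. Over all probes, Nanog+Sin3a against EV gave 1090 calls, and 27 with all 8 arrays, 1843 with array weights, 463 among bright probes, 75 with no filter and 573 with the replicate block. Nanog against EV gave 378 calls, and 0 with all 8 arrays, 972 with array weights, 601 with a floor of 32, 31 with no filter and 196 with the replicate block. Nanog+Sin3a against Nanog gave 3 calls, and 0 with all 8 arrays or the replicate block, 8 with array weights, 7 among bright probes, 18 with a floor of 32 and 20 with no filter. Nanog+Sin3a against Sin3a gave 198 calls, and 19 with all 8 arrays, 0 with array weights, 309 among bright probes, 420 with a floor of 32, 501 with no filter and 34 with the replicate block. Sin3a against EV gave 0 calls, and 4 among bright probes, 1 with a floor of 32 and 400 with no filter; the interaction gave 0, and 1, 3 and 425 under the same 3 settings. Leaving out 1 array gave 0 to 1 calls among these 9 probes in Nanog+Sin3a against Nanog and in Nanog against EV, 0 to 2 in Nanog+Sin3a against EV and 0 in the others. Over all probes it gave 0 to 8 calls in Nanog+Sin3a against Nanog, 0 to 1183 in Nanog+Sin3a against EV, 0 to 426 in Nanog against EV and 0 in the others. Array weights were equal within each pair, so they could not single out the second Sin3a array, and with that array the median of all probes in Sin3a against EV moved to -0.14. Without the first Sin3a array the 7-array fit held no Sin3a group. The causes were not tested.

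Directions turned only for small differences. In Nanog+Sin3a against Nanog, leaving out 1 array gave -0.018 to 0.82 for Krt7, -0.035 to 0.69 for Krt19 and -0.43 to 0.018 for Krt20. In Nanog+Sin3a against Sin3a it gave -0.38 to 0.46 for Krt7 and -0.21 to 0.20 for Krt8 probe 1 (-0.24 to 0.17 among bright probes), and Krt8 probe 1 ran from -0.32 to 0.096 in Nanog+Sin3a against EV. Krt7 was -0.99 in Nanog+Sin3a against Sin3a with all 8 arrays, weighted or not, and -0.093 with the replicate block. Its interaction was -1.01 with all 8 arrays, weighted or not, -0.11 with the replicate block, and -0.40 to 0.44 when 1 array was left out. Krt19 in Nanog against Sin3a was -0.16 with the replicate block. The arrays share only a replicate number. The replicate block kept the Krt20 call in Nanog against EV. It ended the Krt20 calls in Nanog+Sin3a against Sin3a and in Nanog against Sin3a. Krt14 is left out here, since its Nanog+Sin3a differences are given as a description.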

Other observations

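Krt20 and Krt19 also had probes with a like pattern over the 7 arrays, given as a description. For Krt20 they were Llph (Pearson r 0.996), Ptx3 (0.988), Rplp0 (0.988), Stau2 (0.986) and Set (0.985). Apart from Ptx3, these probes read at most 66.4 on the 7 arrays. On the arrays with Nanog all 5 read at most 20.6, so most of those values were raised to the floor of 16. The 2 other tested probes of Llph had an r of 0.638 and 0.808. Ptx3, a secreted pattern recognition protein, read 12.3 and 15.8 in Nanog+Sin3a, -14.7 and -3.9 in Nanog, 135 and 247 in Sin3a, and 86.8 and 88.4 in EV, and its other probe had an r of 0.981. The other probe of Rplp0, a ribosomal protein, had an r of 0.877, and that of Set, a histone chaperone, had -0.42. For Krt19 they were Sirt6 (0.943), Metap2 (0.908), Rnf167 (0.883), Muc1 (0.880) and St6galnac6 (0.873), at low readings apart from Metap2. No other tested probe of these 5 genes had an r above 0.290.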
